A study of Glycine max with 7 samples.

Results

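In cotyledon-stage soybean embryos, 15314 binding sites of the transcription factor GLYMA.04G093300 overlapped no peak of a second factor, GLYMA.06G314400. They were chosen by the positions of called peaks in 4 chromatin immunoprecipitation sequencing (ChIP-seq) libraries. A site was a group of overlapping peaks that held a peak of both GLYMA.04G093300 replicates, with 1 bp as the minimum overlap, and it was kept when neither GLYMA.06G314400 list had a peak overlapping it. There were 30906 GLYMA.04G093300 sites, so the kept sites were 49.6% of them, and the 2 factors together had 70496 sites. Of the remainder, 12503 overlapped a GLYMA.06G314400 site found in both of its libraries and 3089 overlapped a peak found in only 1. The kept sites are called GLYMA.04G093300-only sites here and the 12503 are called shared sites. The absence of a GLYMA.06G314400 peak is how the sites were chosen and is not a finding. It means that no peak reached the authors' q of 0.01 there in either library.

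All samples came from Glycine max cultivar Williams 82, the only genotype the labels give, grown in a greenhouse. Embryos were dissected from seeds of 3.5 to 4.5 mm and fixed in 1% formaldehyde. Chromatin sheared to 100 to 500 bp was incubated with 2 µg of an antibody raised against a peptide of GLYMA.04G093300 (replicates 1 and 2) or 3 µg of one raised against a peptide of GLYMA.06G314400 (replicates 2 and 3). The 3 input samples were not analysed here. The labels name embryos with no separation of cell types, so a site cannot be assigned to a cell type of the embryo.

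The lists name GLYMA.04G093300 HB22 and GLYMA.06G314400 AREB3. In Arabidopsis, HB is the symbol of homeobox proteins, which bind short AT-rich DNA through a homeodomain, and AREB3 is a bZIP protein named for abscisic acid response elements, its DNA targets. Abscisic acid is the hormone under which seeds mature and store reserves. A transcription factor commonly occupies many places in a genome, alone or beside other factors, and a peak marks occupancy without showing that a gene responds to it. The genome build of the peak coordinates is not given in the sources used here, so sites are given by chromosome and position with no gene assigned to them, and no sequence is printed.

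The strength of a site was read from the fold enrichment that the authors' peak caller gave to its highest peak in each library. It is the authors' value within that library. Most GLYMA.04G093300-only sites were modest. In replicate 1 their fold ran from 2.03 to 24.99, with a median of 4.60 and the middle 50% between 3.79 and 5.82. In replicate 2 it ran from 1.86 to 19.2, with a median of 3.92 and the middle 50% between 3.31 and 4.87. Over all GLYMA.04G093300 sites the medians were 4.89 and 4.095, and over shared sites 5.29 and 4.32. A fold of 10 or more was reached by 442 of the GLYMA.04G093300-only sites in replicate 1 and by 146 in replicate 2. These were 26.7% of the 1654 GLYMA.04G093300 sites with such a fold in replicate 1 and 24.8% of the 588 in replicate 2. The class was 49.6% of all GLYMA.04G093300 sites. The 2 replicates ranked the sites alike in part, with a Spearman correlation of 0.493 over the 15314 sites and 0.619 over the 12503 shared sites. Both values are descriptions, since sites are not replicates and fold has a narrower range in the first set.

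**Figure D1:**
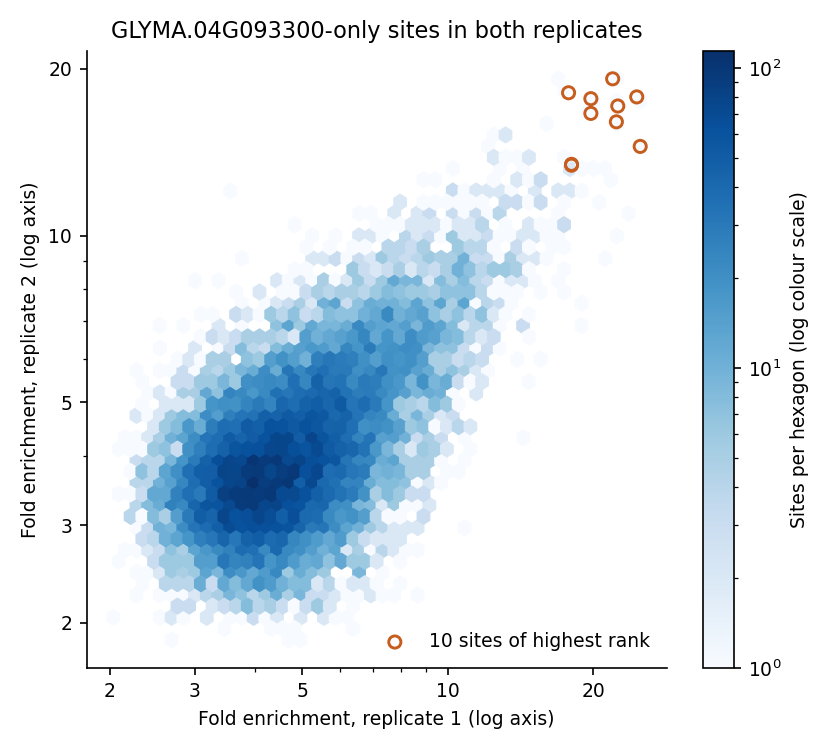
Fold enrichment of the 15314 GLYMA.04G093300-only sites in replicate 1 (horizontal) and replicate 2 (vertical), both on log axes, with colour for the number of sites per hexagon and circles for the 10 sites of highest rank. Most sites lie near the medians of 4.60 and 3.92, and the 10 circled sites lie at 17.8 or more in replicate 1 and 13.4 or more in replicate 2.

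The strongest of these sites were among the strongest of all GLYMA.04G093300 sites. Sites were ranked by the smaller of their 2 percentiles of fold within the libraries. The first was on chromosome 2, bases 45775407 to 45776059, where replicate 1 had a fold of 24.6 and replicate 2 one of 17.8, and it ranked 7 among all 30906 sites. The nearest GLYMA.06G314400 peak lay 3026 bp away, had a fold of 8.73 in its replicate 2 and 20.6 in its replicate 3, and lay in a region that overlapped another GLYMA.04G093300 site. The second, on chromosome 13, bases 32211967 to 32212953, had folds of 22.5 and 17.1 and was 987 bp wide. A weak GLYMA.06G314400 peak, with folds of 3.62 and 4.13, stood 894 bp from it.

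The third was far from the other factor. On chromosome 1, bases 16519645 to 16520319, the fold was 21.9 in replicate 1 and 19.2 in replicate 2, the latter the highest of any GLYMA.04G093300-only site in that library. The nearest GLYMA.06G314400 peak lay 37446 bp away and was called only in replicate 3, with a fold of 7.32. The nearest other GLYMA.04G093300 site was 37752 bp away. The site thus stood apart from both factors, at 29.1% of the chromosome span.

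The fourth stood almost next to the other factor. On chromosome 9, bases 46402714 to 46403358, the folds were 22.3 and 16.05, and 190 bp separated the site from a GLYMA.06G314400 peak with a fold of 8.66 that only replicate 3 held. Distances of the other 6 of the 10 highest sites ran from 556 bp on chromosome 20 (bases 35394720 to 35395634, folds 19.8 and 16.6) to 20130 bp on chromosome 13 (bases 23697903 to 23698760, folds 18.0 and 13.45). The highest fold of the class in replicate 1 was 24.99, at bases 7445687 to 7446300 of chromosome 2, where replicate 2 had 14.5. In all 10 sites the summits of the replicates lay between 1 and 40 bp apart. Strong GLYMA.04G093300-only sites therefore included close neighbours of GLYMA.06G314400 peaks and sites far from one.

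The 10 highest sites lay on 7 chromosomes. On every chromosome the highest-ranked site of the class belonged to the 75 highest of the class. The lowest of these 20 was on chromosome 16, bases 689566 to 690081, and its replicates differed most, at 22.0-fold in replicate 1 and 10.05-fold in replicate 2. The site of the class with the lowest rank, on chromosome 15 at bases 11967702 to 11968059, was enriched 5.09-fold in replicate 1 and 1.86-fold in replicate 2, the lowest value of the class in that list.

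The share of GLYMA.04G093300-only sites fell as sites became stronger. In the decile of all GLYMA.04G093300 sites with the lowest rank, 1792 of 3091 were GLYMA.04G093300-only, or 57.98% (95% exact binomial interval 56.2 to 59.7). In the highest decile 959 of 3091 were, or 31.0% (29.4 to 32.7). The share was lower in each decile than in the one before, although the intervals of several neighbouring deciles overlapped. Among sites with a fold of 20 or more in replicate 1, 12 of 55 were of this class. In replicate 2 no GLYMA.04G093300-only site reached 20, and 3 sites in all did. The intervals cover counting error only, and neighbouring sites are not independent.

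The share fell with width as well. It was 65.9% (64.2 to 67.6) in the narrowest decile of sites and 26.1% (24.6 to 27.7) in the widest. A wider site has more bases at which a peak can overlap it, so width is in part built into the choice of sites. Among the narrowest 25% of sites, the stronger sites were GLYMA.04G093300-only in 61.3% (59.75 to 62.9) and the weaker in 64.4% (62.9 to 65.9). Among the widest 25% the shares were 26.2% (24.8 to 27.6) and 40.05% (38.5 to 41.6). Strength and width thus went with the share together, and the gap between stronger and weaker sites was widest among wide sites. Within these groups the stronger sites were still the wider ones, with medians of 806 and 727 bp in the widest 25%.

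**Figure D2:**
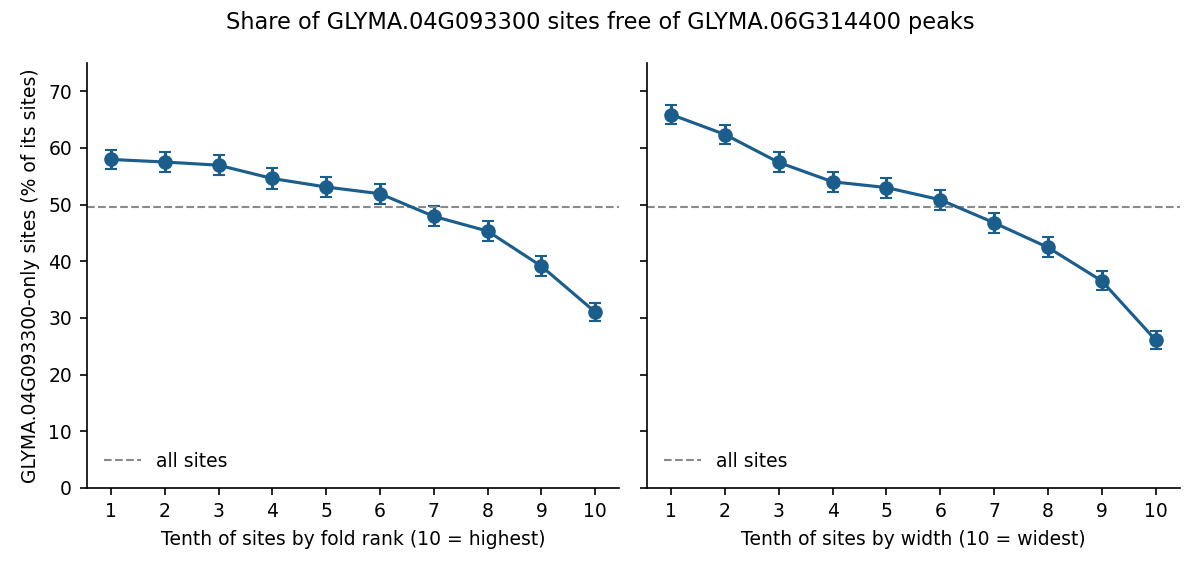
Percent of GLYMA.04G093300 sites that were GLYMA.04G093300-only in deciles of all 30906 sites by fold rank (left) and by width (right), with 95% exact binomial intervals and a dashed line at the share of all sites, 49.6%. The share drops from 57.98% to 31.0% with strength and from 65.9% to 26.1% with width.

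GLYMA.04G093300-only sites were compact. Their width ran from 191 to 2016 bp with a median of 409 bp, and 10% were 277 bp or narrower and 10% were 694 bp or wider. The median width was 338 bp for their peaks in replicate 1 and 323 bp in replicate 2. A width of 1 kb or more was found in 265, or 1.73%, against 7.91% of shared sites and 4.61% of all GLYMA.04G093300 sites. The sites of the other factor chosen in the same way showed the same order, with 2.16% of GLYMA.06G314400-only sites and 4.52% of all GLYMA.06G314400 sites at 1 kb or more. The widest lay on chromosome 15, bases 8973048 to 8975063, with folds of 8.52 and 7.53. In 14814 sites, or 96.7%, exactly 1 peak of each replicate made up the site. The summits of the replicates were a median of 43 bp apart, and 42 bp apart in shared sites. In total the class covered 6.96 Mb.

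Most of the sites were called well beyond the threshold. A q of 1e-05 or lower in both replicates was reached by 12460 of them, or 81.4%, against 84.3% of all GLYMA.04G093300 sites. No test of the class against other sites is given. The same libraries and peak edges that give width and fold also chose the sites, and with 2 libraries of each factor the smallest exact two-sided permutation p between the factors is 0.333. From replicate 1 of GLYMA.04G093300 alone, 28113 peaks were free of GLYMA.06G314400 peaks. With the 10000 peaks of highest fold in each library, 4991 sites, or 78.35% of those then found, were GLYMA.04G093300-only. The GLYMA.06G314400 lists were cut to 10000 as well, from 45324 and 50147 peaks, so overlaps with their lower peaks no longer counted.

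Most GLYMA.04G093300-only sites had a GLYMA.06G314400 peak within a few kilobases. Distances were counted in bases between the edges of the site and of the nearest peak in either list. They ran from 0 to 836758 bp over the 15304 sites with such a peak on the same sequence, with a median of 2120 bp. The middle 50% lay between 764 and 5422 bp. Measured to each library alone, the median was 2789 bp to replicate 2 and 2410 bp to replicate 3, the longer list. A peak of the other factor lay within 100 bp of 453 sites (2.96%), within 1 kb of 4747 (31.02%, 95% exact binomial interval 30.3 to 31.8) and within 10 kb of 13444 (87.8%). Beyond 50 kb there were 191 sites, or 1.25%.

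Sites of the reverse kind lay farther apart at the median. The 20979 sites of GLYMA.06G314400 that overlapped no GLYMA.04G093300 peak, 53.0% of its 39590 sites, had a GLYMA.04G093300 peak at a median of 2878 bp over the 20964 with one on the same sequence. Of these, 25.5% lay within 1 kb of one and 19.5% lay more than 10 kb from one, against 31.02% and 12.2% of the GLYMA.04G093300-only sites. Distances were measured to every peak of the other factor, recurring or not. Joined over its 2 libraries, GLYMA.06G314400 had 55051 such regions. GLYMA.04G093300 had its 30906 sites and, besides them, 18880 non-recurring peaks in replicate 1 and 7950 in replicate 2. The part of these numbers in the difference was not tested. With the 10000 highest peaks per library the median distance of GLYMA.04G093300-only sites was 12072 bp, and 8.04% lay within 1 kb. Requiring that no GLYMA.06G314400 peak lie within 500 bp of a site left 17.3% within 1 kb, by construction.

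**Figure D3:**
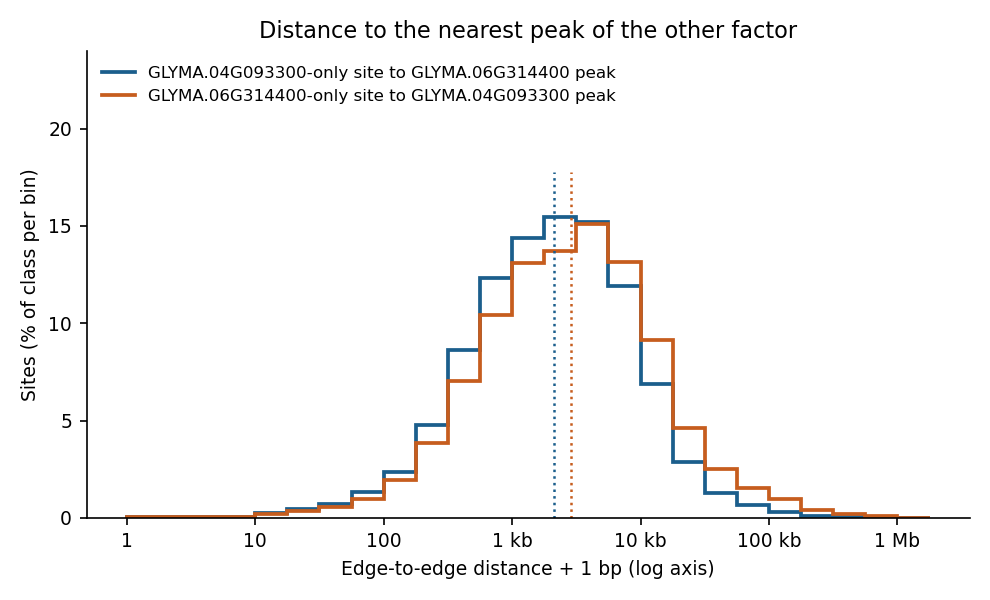
Distance from GLYMA.04G093300-only sites to the nearest GLYMA.06G314400 peak (blue) and from GLYMA.06G314400-only sites to the nearest GLYMA.04G093300 peak (orange), in bp plus 1 on a log axis, as percent of each class per bin. Dotted lines mark the medians of 2120 and 2878 bp, and both distributions have 1 broad maximum at a few kilobases.

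At the edge of the rule, sites just outside had a higher median width and higher median folds than sites just inside, which is given with no test. The edges of a site decide on which side it falls, so the difference in width is in part built into the rule. Fold also rose with width within the class, with Spearman correlations of 0.336 in replicate 1 and 0.293 in replicate 2. The 82 sites with a gap of 20 bp or less to a GLYMA.06G314400 peak had a median width of 420 bp and median folds of 4.33 and 3.58. The 84 sites that overlapped one by at most 20 bp, and so were not counted, had a median width of 475 bp and folds of 4.52 and 3.74. A gap of 0 bp, with edges that touch, was found at 3 sites, and an overlap of exactly 1 bp at 5. The 3 touching sites were on chromosome 2 (bases 6959261 to 6959610, folds 5.28 and 4.74), chromosome 10 (bases 3296226 to 3296716, folds 5.28 and 4.64) and chromosome 19 (bases 39252865 to 39253146, folds 4.20 and 2.99). Next came 2 sites with a gap of 1 bp, on chromosome 12 (bases 5265325 to 5265676) and on chromosome 1 (bases 11605963 to 11606245).

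Strength varied little with distance. The median fold was 4.59 in replicate 1 and 3.94 in replicate 2 for the 2550 sites within 500 bp of a GLYMA.06G314400 peak. For the 191 sites beyond 50 kb it was 4.52 and 4.01. Between these ends the medians of the 8 distance classes ran from 4.52 to 4.67 in replicate 1 and from 3.89 to 4.01 in replicate 2. The Spearman correlation between distance and rank was 0.0133 over 15304 sites. Width hardly varied either, with medians between 379 and 415 bp in the 8 classes.

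The GLYMA.06G314400 peak nearest to a site was found in both libraries as often as such regions in general. Joined over its 2 libraries, GLYMA.06G314400 had 55051 regions, of which 71.9% held a peak of both libraries. Of the regions nearest to a GLYMA.04G093300-only site, 71.9% did so too. In 4979 cases, or 32.5%, that region also overlapped another GLYMA.04G093300 site, against 28.6% of all 55051 regions. Shares of nearest regions count a region once for each site it is nearest to, so the 15304 cases held 12091 different regions. The shares of all 55051 count each region once. For sites within 1 kb the share was 37.0%, and beyond 10 kb it was 24.1%. Within 5 kb, 4106 sites (26.8%) had a GLYMA.06G314400 region on both sides, 7060 (46.1%) on 1 side and 4148 (27.1%) on neither. Most GLYMA.04G093300-only sites thus had a region of the other factor within 5 kb.

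The 5 sites farthest from the other factor lay on 4 chromosomes, and the highest of them ranked 12552 among all 30906 GLYMA.04G093300 sites. The farthest, on chromosome 20 at bases 15729708 to 15729983, was 836758 bp from a GLYMA.06G314400 peak and had folds of 2.71 in replicate 1 and 4.08 in replicate 2. A second site on the same chromosome, at bases 16072235 to 16072597, was 494144 bp from one and had folds of 8.67 and 4.03. The site at 527184 bp was on chromosome 19, bases 24674328 to 24674917, with folds of 5.41 and 3.61. The last of the 5 were on chromosome 13 (bases 9046432 to 9046708, 428534 bp) and chromosome 10 (bases 19657301 to 19657879, 357311 bp). All 5 lay between 19.7% and 48.6% of the chromosome span. The highest-ranked site beyond 50 kb, on chromosome 18 at bases 16532797 to 16533450, had folds of 13.0 and 11.1 and ranked 260 among all GLYMA.04G093300 sites.

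Along the chromosomes, GLYMA.04G093300-only sites were concentrated towards the ends, where soybean carries most of its genes. Of the 15237 sites on the 20 chromosomes, 6351 or 41.7% lay in the outermost 10% of the span at either end. The middle 50% of the span held 2990, or 19.6% (95% exact binomial interval 19.0 to 20.3). The sixth decile of the span had the fewest, 379 sites or 2.49%, and the last decile the most, 3235 or 21.2%. Shared sites had 41.8% at the ends and 19.5% in the middle, and GLYMA.06G314400-only sites 37.8% and 23.0%.

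The share of GLYMA.04G093300 sites that belonged to the class was nearly level along the span. It lay between 46.99% (44.45 to 49.5) in the fourth decile and 50.2% in 3 other deciles, except in the sixth decile, where it was 55.2% (51.4 to 58.9). That decile held 687 of the sites. The corresponding share of GLYMA.06G314400 sites was 50.2% in the first decile, 60.3% in the sixth and 51.45% in the last. In the other deciles from the third to the eighth it lay between 55.1% and 56.8%, with 53.0% in the second and 52.1% in the ninth. The shares of both factors come from the same overlaps and are not separate observations.

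Position and distance went together. Of the GLYMA.04G093300-only sites within 500 bp of a GLYMA.06G314400 peak, 17.7% lay in the middle 50% of the span. At 10 to 20 kb the share was 25.02%, at 20 to 50 kb it was 49.3%, and beyond 50 kb it was 70.9%, or 134 of 189 sites. Seen from the position, the median distance was 2843 bp in the middle 50% and 1938 bp in the outermost deciles. In the middle 22.3% of the sites lay more than 10 kb from the other factor, and at the ends 8.33%. Peaks of both factors are sparse in the middle of the chromosomes, and their part in this was not tested.

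**Figure D4:**
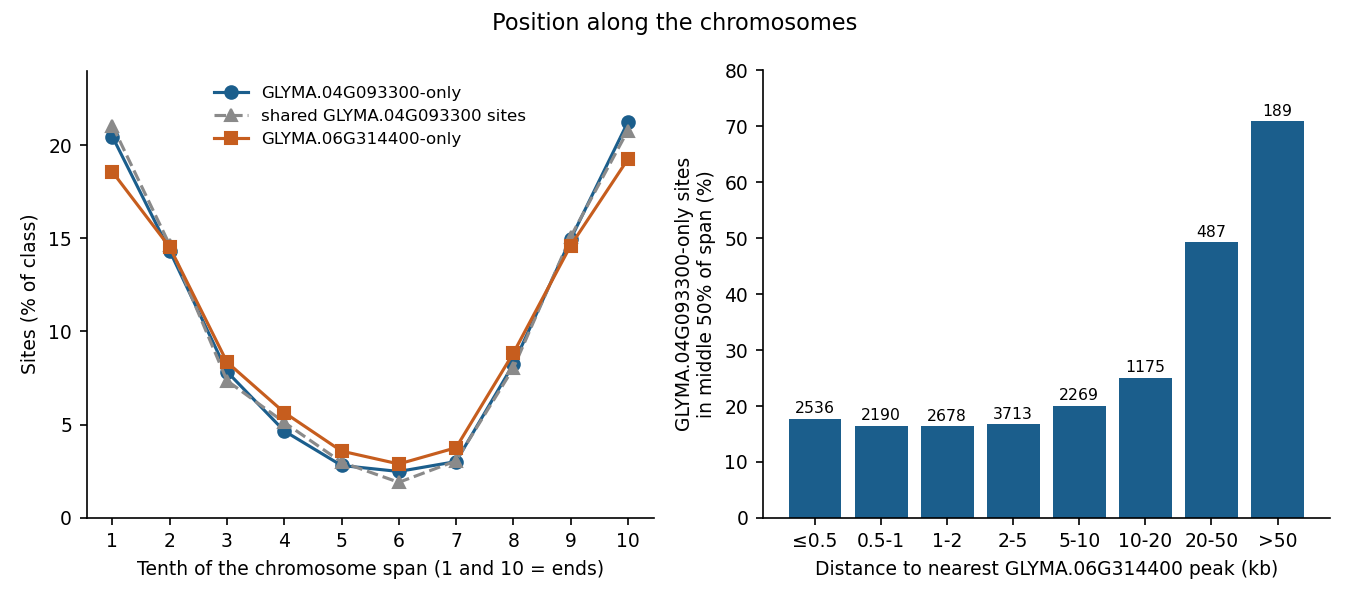
Left, percent of each class of sites in deciles of the chromosome span, pooled over 20 chromosomes, for GLYMA.04G093300-only, shared and GLYMA.06G314400-only sites. Right, percent of GLYMA.04G093300-only sites in the middle 50% of the span by distance to the nearest GLYMA.06G314400 peak, with the number of sites above each bar, which rises from 17.7% within 500 bp to 70.9% beyond 50 kb.

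All 20 chromosomes carried the class, at different densities. The number of sites ran from 475 on chromosome 16 to 1143 on chromosome 13. Per megabase of span the mean over chromosomes was 16.2 ± 3.67 (SD, n = 20 chromosomes), from 11.8 on chromosome 14 to 24.9 on chromosome 13. Chromosomes 11 and 17 followed with 21.4 each. GLYMA.06G314400-only sites were also densest on chromosome 13, with 31.7 per megabase. All GLYMA.04G093300 sites together were also most numerous on chromosome 13, with 2316, and least on chromosome 16, with 956. On chromosome 13, 53.9% of the GLYMA.04G093300-only sites lay in the middle 50% of the span, against 6.61% on chromosome 4, the lowest. Shared sites had nearly the same placement, with 51.97% on chromosome 13 and 8.25% on chromosome 4.

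The share of GLYMA.04G093300 sites in the class varied little between chromosomes. Its mean was 49.6% ± 1.42 (SD, n = 20 chromosomes). On 19 of 20 chromosomes the 95% exact binomial interval held the pooled share of 49.6%. The exception was chromosome 11, with 743 of 1636 sites or 45.4% (42.98 to 47.9), and the highest share was 52.1% (49.4 to 54.75) on chromosome 15. Chromosome 11 is named because its share was the lowest of the 20, and its departure was not tested. The intervals cover counting error only, and neighbouring sites are not independent. Chromosome 11 also had the lowest share of GLYMA.06G314400 sites without the other factor, at 49.1% against a mean of 53.2% ± 2.34. Both shares come from the same overlaps between the 2 factors, so the second is not a separate observation. Median fold was steady, at 4.61 ± 0.0645 in replicate 1 and 3.93 ± 0.0445 in replicate 2 over the 20 chromosomes, and the median distance ran from 1783 bp on chromosome 6 to 2615 bp on chromosome 18.

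**Figure D5:**
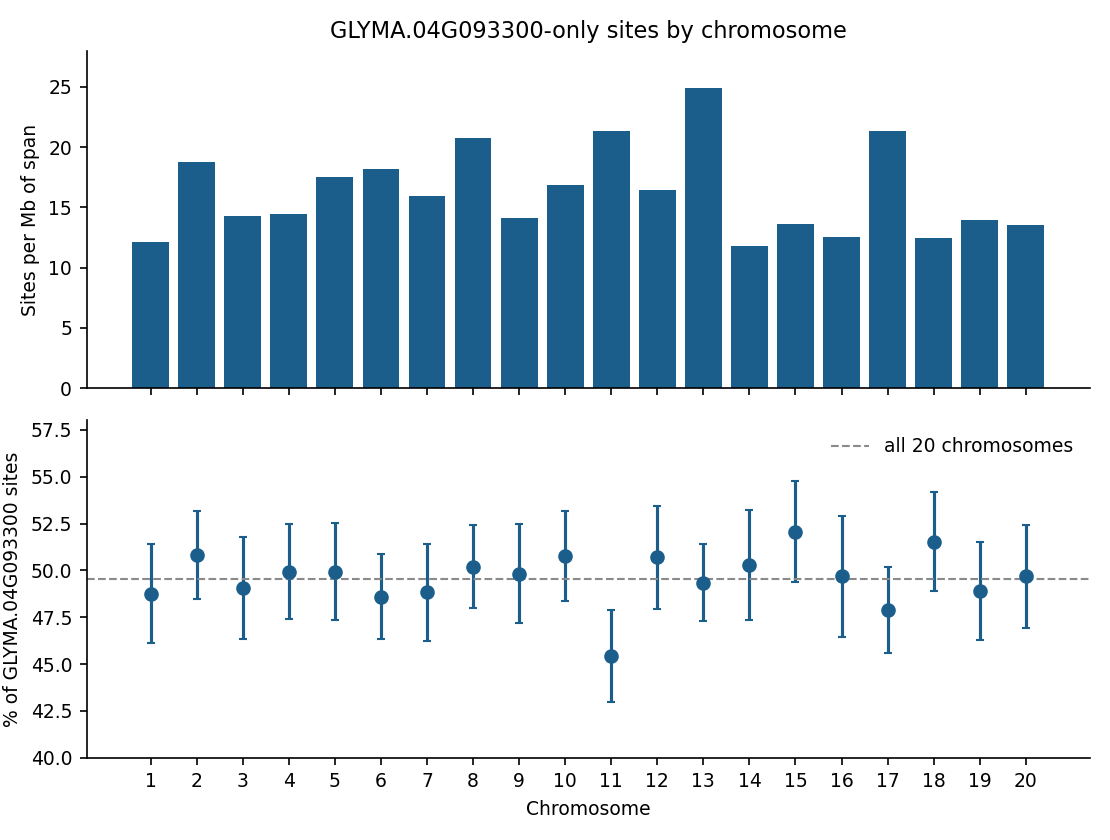
GLYMA.04G093300-only sites on each of the 20 chromosomes, as sites per megabase of span (top) and as percent of all GLYMA.04G093300 sites with 95% exact binomial intervals (bottom, axis from 40 to 58%), the dashed line being the share over all chromosomes. Chromosome 13 is densest with 24.9 per megabase, and chromosome 11, at 45.4%, is the only one whose interval misses the line.

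Neighbouring GLYMA.04G093300-only sites were usually well apart, with a minority in small groups. The median gap between consecutive sites of the class was 19520 bp, and the nearest site of the class was a median of 8252 bp away. The shared sites, 12503 against 15314 in the class, had a median gap of 22589 bp between consecutive shared sites. Their median to the nearest shared site was 8288 bp, and 14.83% lay within 1 kb of one, against 14.86% in the class. More than 100 kb from their own kind lay 5.31% of shared sites and 4.28% of the class. The sets differ in number, so these distances do not compare clustering. With replicate 2 left out, consecutive peaks of replicate 1 that met the rule were a median of 10352 bp apart, and with the 10000 highest peaks per library the gap was 62402 bp. Counting every GLYMA.04G093300 site, the nearest neighbour was a median of 3224 bp away, and 2697 bp for shared sites. Of the class, 26.3% had another GLYMA.04G093300 site within 1 kb and 1.85% had none within 100 kb.

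The nearest GLYMA.04G093300 neighbour was again GLYMA.04G093300-only in 7923 of 15300 cases, or 51.8%, close to the 49.6% of all sites. For neighbours within 1 kb it was 53.8% of 4031. For shared sites the nearest neighbour was GLYMA.04G093300-only in 45.2%, and in 40.3% of 3550 where it lay within 1 kb. These shares come from the same overlaps that chose the sites and are given as descriptions.

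Groups of such sites were small. Joining sites of the class with gaps of at most 2 kb left 11712, or 76.5%, standing alone. A further 2856 sites formed 1428 groups of 2, and 582 formed 194 groups of 3. The largest groups had 6 sites, and there were 2 of them. Counted instead as runs with no other GLYMA.04G093300 site in between, whatever the distance, the longest run had 16 sites on chromosome 10 between bases 7953633 and 9576273. It spanned 1622.6 kb, and 37 GLYMA.06G314400 regions lay within its extent. Runs of 13 sites were found 3 times, among them those on chromosome 2 over 503.9 kb (bases 13084176 to 13588097) and chromosome 7 over 369.2 kb (bases 8593706 to 8962891).

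The most GLYMA.04G093300-only sites in any window of 20 kb were 9, reached on chromosomes 11 and 10. On chromosome 11 they took up 18.15 kb, between bases 3168061 and 3186212, with no GLYMA.06G314400 peak and no other GLYMA.04G093300 site among them. The strongest, at bases 3175057 to 3175674, had folds of 12.04 and 8.64 in replicates 1 and 2. Beside it, bases 3176680 to 3177326 had folds of 8.23 and 6.46, and bases 3171603 to 3172134 had 8.22 and 5.45. The other 6 had folds of 2.67 to 4.33 in replicate 1 and 3.02 to 4.17 in replicate 2. Gaps between consecutive sites ran from 90 to 3273 bp. GLYMA.06G314400 peaks bounded the stretch 3757 bp before its first site and 805 bp after its last, with folds of 5.29 and 6.50 in replicate 2 and 3.79 and 5.48 in replicate 3. So 3 stronger sites stood among 6 weaker ones in a stretch of 22.7 kb without the other factor.

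The stretch on chromosome 10 and the next by count, on chromosome 3, did contain the other factor. On chromosome 10, bases 41241473 to 41260426 (18.95 kb) held 9 sites of the class beside 1 other GLYMA.04G093300 site and 2 GLYMA.06G314400 regions. Folds were 3.52 to 7.13 in replicate 1 and 3.20 to 6.10 in replicate 2. On chromosome 3, bases 40807225 to 40823189 (15.96 kb) held 8 sites with folds of 3.11 to 6.50 and 2.60 to 4.42, and 2 GLYMA.06G314400 regions lay between them. One of these, 416 bp from the nearest site of the class, had folds of 20.01 and 25.6 in the GLYMA.06G314400 libraries. No site of this stretch reached the strength of the 3 strong sites on chromosome 11.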

How the data were processed

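The authors deposited 1 peak list for each of the 4 ChIP libraries. Bowtie 0.12.7 (read alignment) and MACS3 (peak calling) are listed in the submitters' processing notes. The deposited lists are named for a q of 0.01, and no peak in them has a higher q. Neither other settings nor the build nor how the inputs were used is given in the sources used here. The deposited lists give a fold, that is a ratio over the caller's background within 1 library, and −log10 p and q values, all from the authors. The deposited score column was not used. Replicate numbers follow the sample labels. Inside the lists the GLYMA.04G093300 libraries are numbered 3 and 4, and the GLYMA.06G314400 libraries 4 and 1. The labels number the replicates without naming separate plants, and no p-value over replicates is given. No read counts were used, so depth is unknown, and it moves how many peaks pass.

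Peaks were joined into sites by connected overlap of 1 bp or more. The caller's edges decide overlap, width and distance. A site's fold in a library is that of its highest peak. Chromosome span was the highest peak end in any list. Coordinates count from 1. Sites named are the 10 of highest rank, the 5 farthest from and the 5 nearest to the other factor, the 3 windows of 20 kb with the most sites, the widest and the highest of each chromosome, of which those with extreme values are given. The longest runs and the sites of highest rank beyond 50 kb, lowest rank and highest fold were chosen after their values were seen. The sites, the rule and the lists were chosen with earlier results of these data known, and the joint splits by width and strength, by distance and by position were added after seeing the data. The design had planned motifs and gene contexts, which were not run. Code was checked against exhaustive counts on simulated peaks. The alternatives were a q of 1e-05, the 10000 highest peaks per library, 50% overlap of replicates, recurring GLYMA.06G314400 sites, a margin of 500 bp and leaving out each library. Software was matplotlib 3.10.9, scipy 1.17.1, pandas 2.3.3 and numpy 2.4.6 under Python 3.11.15.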

Additional observations from a re-analysis of the deposited data

How the results depend on the processing

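The share of GLYMA.04G093300-only sites in the middle 50% of the chromosomes stayed within its interval under every alternative run except the 10000 highest peaks per library, which gave 18.65%. That alternative also gave 4991 sites, 78.35% of GLYMA.04G093300 sites, a median width of 571 bp, a mean of the library median folds of 7.21, a median distance of 12072 bp, 8.04% within 1 kb and a median gap of 62402 bp. Fewer peaks enter there by construction. At a q of 1e-05 or lower the median width was 423 bp, the distance 2199 bp, the share within 1 kb 30.1% and the gap 24018.5 bp. With 50% overlap between replicates the width was 390 bp and the gap 22964 bp. Counting only GLYMA.06G314400 sites found in both libraries gave 59.55%, a width of 417 bp, a distance of 3085 bp, 23.98% within 1 kb and a gap of 15649.5 bp. Leaving out sites with a GLYMA.06G314400 peak within 500 bp gave 41.3%, 2873 bp, 17.3% within 1 kb and 24378 bp. Leaving out each library in turn gave 16009 to 28113 sites or peaks, 51.8% to 58.3%, widths of 290 to 416 bp, folds of 3.70 to 4.32, distances of 2080 to 2608 bp, 26.6% to 32.0% within 1 kb and gaps of 10352 to 18562 bp. The cause of these moves was not tested, beyond what each alternative changes by construction. No paired analysis was possible because the 2 factors share only 1 replicate number. The lists hold no read counts, so what depth limits could not be measured.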

Other observations

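GLYMA.04G093300 peaks that did not recur in the other replicate were more often free of GLYMA.06G314400 peaks than those that did. In replicate 1, 12044 of 18880 such peaks (63.8%) overlapped no GLYMA.06G314400 peak, against 50.6% of the 31785 peaks that made up sites. In replicate 2 it was 5862 of 7950 (73.7%), against 50.8% of 31771. The non-recurring free peaks had a median fold of 3.63 in replicate 1 and 3.35 in replicate 2, below the 4.58 and 3.89 of peaks in GLYMA.04G093300-only sites. The direction was the same in both libraries. The 2 kinds of peak were not matched for strength or width. Among recurring sites the GLYMA.04G093300-only share was itself 57.98% in the decile of lowest rank and 65.9% in the narrowest decile. Whether recurrence matters apart from strength and width was not tested.

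On sequences not placed on a chromosome, 77 of 157 GLYMA.04G093300 sites were GLYMA.04G093300-only. They lay on 24 scaffolds, with 25 of them on scaffold 21 and 17 on scaffold 28. The 10 GLYMA.04G093300-only sites without a distance lay on 9 scaffolds that had no GLYMA.06G314400 peak.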
